A study of Mus musculus with 9 samples.

Results

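The cytosolic heat shock chaperones described here are 10 mouse genes: Hspa1a, Hspa1b, Hspa8, Dnajb1, Dnaja1, Hsph1, Hsp90aa1, Hsp90ab1, Hspb1 and Bag3. Their signals were taken from every probe set whose single annotated gene symbol is one of these names. Each probe set combines several short DNA probes for a transcript into 1 brightness value, its signal. This gave 20 of the 22690 probe sets and 9 of the 10 genes, out of 12393 genes with a probe set of a single symbol. Hsp90ab1, the constitutive HSP90 gene, had no such probe set and is not analysed here.

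RNA came from the left and right striatum of 9 male C57BL/6J mice aged 56 days, with 1 single-colour Affymetrix array per sample. There were 3 saline-injected mice (Control), 3 injected with methamphetamine (METH) and 3 injected with MPTP, and the series text calls the samples of a group biological replicates. METH is a psychostimulant that releases dopamine from nerve terminals, and MPTP yields, once in the brain, a mitochondrial poison that dopamine neurons import. Both injections serve as mouse models of Parkinson's disease. Dose, dosing schedule and delay before tissue collection are not given in the labels used here. The comparisons ask whether chaperone transcripts of the striatum differ from saline after either toxin, and whether METH and MPTP differ.

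Heat shock chaperones bind unfolded or partly folded proteins and help them refold, mature or reach the proteasome. HSP70 proteins hold exposed stretches of a client in a cycle driven by ATP. J-domain proteins bring clients to HSP70 and stimulate its ATPase, nucleotide exchange factors release the clients again, and HSP90 takes over clients such as kinases and steroid receptors late in folding. Some members are made at all times, and others are induced when misfolded proteins free heat shock factor to bind heat shock elements, repeats of GAA and its complement TTC, in their promoters. In neurons the constitutive forms are abundant.

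The arrays were similar in scale. Each had the same trimmed mean, 2501, with medians from 1111 to 1233 and Spearman correlations between arrays of 0.970 to 0.985. The highest median was that of METH 2, whose signals also spread least, with 6.25 log2 units from the 10th to the 90th percentile and 6.40 to 6.69 on the other arrays. Striatal spiny neuron markers were bright on every array, with Ppp1r1b between 27711 and 35822 and Drd2 between 14795 and 20549.9. In bulk tissue, fewer cells of a type and less RNA per cell cannot be told apart.

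Hspa1a and Hspa1b encode the stress-inducible HSP70, and they are the members whose signals varied most between arrays. Both lie on chromosome 17, and their upstream sequences are printed because the pair is almost the same sequence and carries the same heat shock element. Each line gives the 250 bases before the start of the RefSeq transcript in GRCm38.p6, at chr17:34972157-34972406 for Hspa1a and chr17:34959239-34959488 for Hspa1b, both on the minus strand. Capitals mark the match to GAANNTTC.
Hspa1a: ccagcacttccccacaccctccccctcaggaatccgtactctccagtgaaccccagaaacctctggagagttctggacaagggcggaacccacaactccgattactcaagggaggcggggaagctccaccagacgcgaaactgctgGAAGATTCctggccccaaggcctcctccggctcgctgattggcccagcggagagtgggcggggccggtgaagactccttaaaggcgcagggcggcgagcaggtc
Hspa1b: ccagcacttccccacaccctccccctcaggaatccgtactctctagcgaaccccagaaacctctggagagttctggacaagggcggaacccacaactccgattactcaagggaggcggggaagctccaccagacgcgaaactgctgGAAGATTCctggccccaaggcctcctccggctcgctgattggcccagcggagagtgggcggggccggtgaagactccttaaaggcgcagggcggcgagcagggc
The windows were identical at 247 of 250 positions, or 98.8%. The differences from Hspa1a to Hspa1b were C44T, T47C and T249G, with positions counted from 1 at the 5′ end of the printed sequence. In both genes the match GAAGATTC lay 104 to 97 bases before the start.

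Of the 10 members, 7 had a window in the RefSeq table. The motifs searched were GAANNTTC and TTCNNGAA, each its own reverse complement, and a longer element in which they overlap, GAANNTTC followed directly by NNGAA, searched on both strands. Either 8-letter motif was found in 5 members and in 13% of all 27025 windows of the same length, and the longer element in 0 members and in 0.403% of windows. The other 3 members with a match are shown by the stretch around it, again with the match in capitals, at chr4:40722324-40722371 (plus strand) for Dnaja1, chr5:149636342-149636389 (minus strand) for Hsph1 and chr5:135887782-135887849 (plus strand) for Hspb1.
Dnaja1: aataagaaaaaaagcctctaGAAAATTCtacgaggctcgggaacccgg
Hsph1: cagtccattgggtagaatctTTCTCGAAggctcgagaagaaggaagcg
Hspb1: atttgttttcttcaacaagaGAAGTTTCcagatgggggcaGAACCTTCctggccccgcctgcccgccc
Dnajb1 and Bag3 had no match in this window. CCAAT, searched on both strands, was in the windows of 4 members (Hspa1a, Hspa1b, Dnajb1 and Hsph1) and in 34.5% of all windows. A match in letters is a description and not evidence of binding.

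In METH striatum the inducible HSP70 signals lay above Control on average, by 1.53-fold for Hspa1a and 3.37-fold for the brightest Hspa1b probe set, but no member passed the test against Control or against MPTP. The spread between mice was wide, with METH 1 and METH 2 the highest arrays of all 9. The Hspa1b probe set 1427127_x_at read 335, 511 and 1428 on the 3 Control arrays, 3031, 2026 and 1525 on the METH arrays, and 1000.07, 626 and 1515 on the MPTP arrays. All 3 METH values were above all 3 Control values, though METH 3 exceeded Control 3 by little, and MPTP 3 was close to both. Group means were 758 ± 587 in Control, 2194 ± 767 in METH and 1047 ± 446 in MPTP (SD, n = 3 each).

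The log2 fold change of this probe set, METH over Control, was 1.75 ± 0.50 (SE), with a 95% interval of 0.64 to 2.87 and an adjusted p of 0.461 in limma's moderated test. It had the largest positive log2 fold change among the 13584 probe sets tested in that comparison, and was 160th by p. Control 1 and Control 2, at 335 and 511, were under the filter signal of 741. The mean log2 of the Control arrays alone was under the filter too, so the probe set passed it through the toxin arrays. Without Control 1 the METH over Control value was 1.30, and without Control 3 it was 2.35. In MPTP it was 0.65 ± 0.50 (adjusted p = 0.917), and it ran from 0.20 without Control 1 to 1.25 without Control 3. With limma's array weights, which count less consistent arrays for less, it was 0.049. METH over MPTP it was 1.10 ± 0.50, with an interval of -0.01 to 2.21 and adjusted p = 0.9998.

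A second Hspa1b probe set, 1452318_a_at, read 444, 713 and 1027 in Control, 2540.4, 1668 and 1090.5 in METH, and 869, 644 and 1304 in MPTP. Every METH value was again above every Control value, with METH 3 just above Control 3, while MPTP overlapped both groups. The mean log2 of its Control arrays alone was again under the filter. Its log2 fold change was 1.28 ± 0.37 in METH (adjusted p = 0.484) and 0.39 ± 0.37 in MPTP (adjusted p = 0.940). The MPTP value was 0.073 without Control 1, 0.075 with array weights and 0.68 without Control 3. The third, 1427126_at, had a mean signal under the filter on dim probe sets and was not tested. It read 318, 404 and 712 in Control, 1377, 948 and 543 in METH, and 451, 471 and 773 in MPTP, so METH overlapped Control.

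Hspa1a, read by 1452388_at, gave 651, 777 and 1065 in Control, 1839, 1232 and 857 in METH, and 659, 758 and 1009 in MPTP. METH 1 and METH 2 were above every Control array, METH 3 was within the Control range, and MPTP nearly matched Control. The log2 fold change was 0.62 ± 0.28 in METH (95% interval -0.00 to 1.24, adjusted p = 0.571) and -0.03 ± 0.28 in MPTP (adjusted p = 0.996). Leaving out single arrays moved the METH value between 0.34, without METH 1, and 0.89, without METH 3. METH over MPTP it was 0.65 ± 0.28, with an interval of 0.03 to 1.27 and adjusted p = 0.9998, and it was 0.37 without METH 1 and 0.92 without METH 3.

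**Figure D1:**
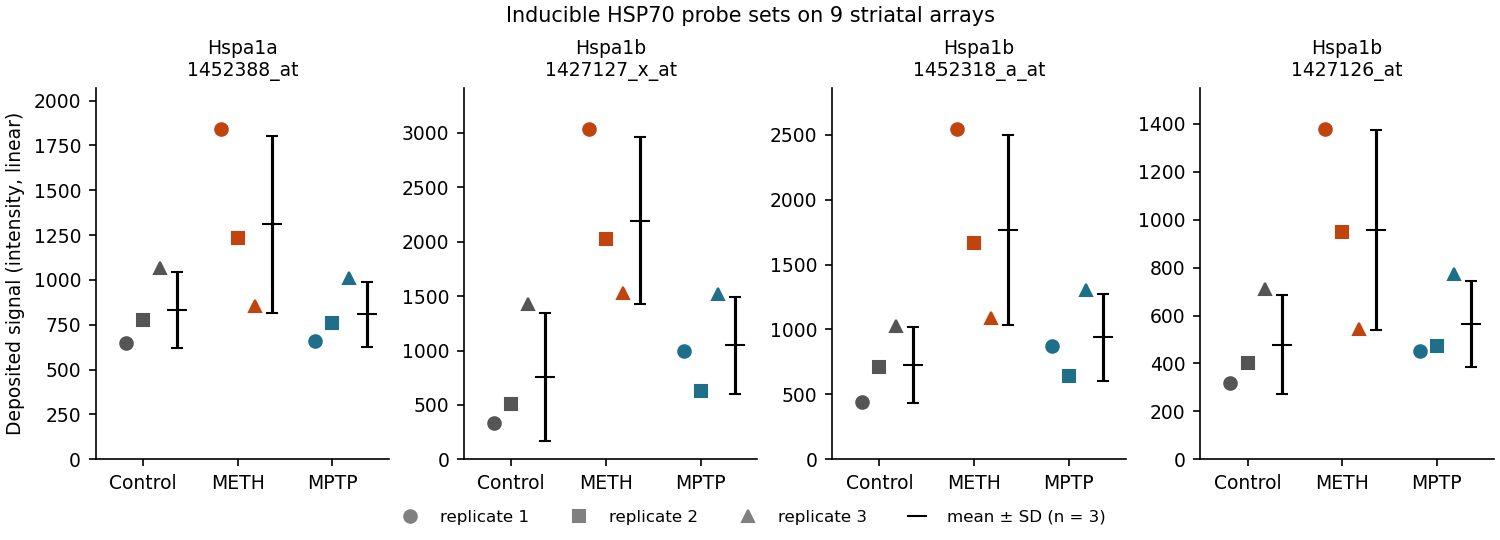
Signals (linear intensity as deposited, each panel with its own axis from 0) of the Hspa1a probe set and the 3 Hspa1b probe sets in Control, METH and MPTP, 1 point per array with shape for replicate, and bars for the mean ± SD of 3 arrays. METH 1 is the highest point and Control 1 the lowest in every panel, and METH 3 lies within the Control range for Hspa1a and for the dimmest Hspa1b probe set.

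The 4 probe sets ordered the arrays alike at the extremes, with METH 1 highest, METH 2 second and Control 1 lowest in all 4. These probe sets are not independent readings. The genes are near-identical in sequence, and the suffix _x_at marks probes that may also bind other transcripts, so the split of signal between Hspa1a and Hspa1b is uncertain. The highest array exceeded the lowest by 2.82-fold for Hspa1a and by 9.04-fold, 5.72-fold and 4.33-fold for the Hspa1b probe sets. Within Control alone the ranges were 1.64-fold, 4.26-fold, 2.31-fold and 2.24-fold.

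Markers of other cells were summed over the same arrays, and none was at 0. Microglial markers (9 of 11 listed genes tested) had summed signals of 43065 to 48329 in the Control group, 48861 to 51197 after METH and 47078 to 51186 after MPTP. Blood markers (2 of 6) summed to 984 to 1602, 1933 to 2063 and 1639 to 2719 in the same order. For both lists every METH sum was above every Control sum, and for blood every MPTP sum was too. Of all single genes, 6.48% were higher without overlap in METH and 6.13% in MPTP. The blood genes were dim, with Hbb-b2 at 423 to 1173 and Ptprc at 560 to 1545. Hbb-b2 averaged 631 in Control, under the filter signal of 741, so it passed through the toxin arrays. Hba-a1, Hba-a2 and Alas2 were under the filter and are not in the sum. In the other cell type lists the METH and Control sums overlapped. The ratio of the 3' to the 5' control probe set of a gene reads RNA integrity. For pyruvate carboxylase it was 2.46 to 3.38 on Control arrays, 1.42 to 2.89 on METH and 2.16 to 2.95 on MPTP. METH 1 was at 2.89. METH 2 and METH 3 were below every Control array for pyruvate carboxylase and for Gapdh, but not for Tfrc or Actb. In the order Control, METH and MPTP, Tfrc spanned 2.20 to 2.81, 2.25 to 2.94 and 2.76 to 3.73. Actb spanned 1.07 to 1.21, 1.08 to 1.17 and 1.11 to 1.17. Gapdh spanned 0.83 to 0.86, 0.73 to 0.84 and 0.78 to 0.84. Gfap, an astrocyte filament gene, was the only gene past the test in either toxin against Control, with adjusted p = 0.0404 in METH and 0.0382 in MPTP. The part of these cells, or of RNA quality, in the Hspa1a and Hspa1b signals was not tested.

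Dnajb1 encodes the J-domain partner that delivers clients to HSP70 and is itself stress-inducible. Its signals were on opposite sides of Control after the toxins, by less than the test could call. The brighter probe set, 1416755_at, read 5019, 4626 and 5759 in Control, 6654, 6014 and 5422 in METH, and 4859.7, 3918 and 4703 in MPTP. Every METH value was above every MPTP value, and both toxins overlapped Control.

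**Figure D2:**
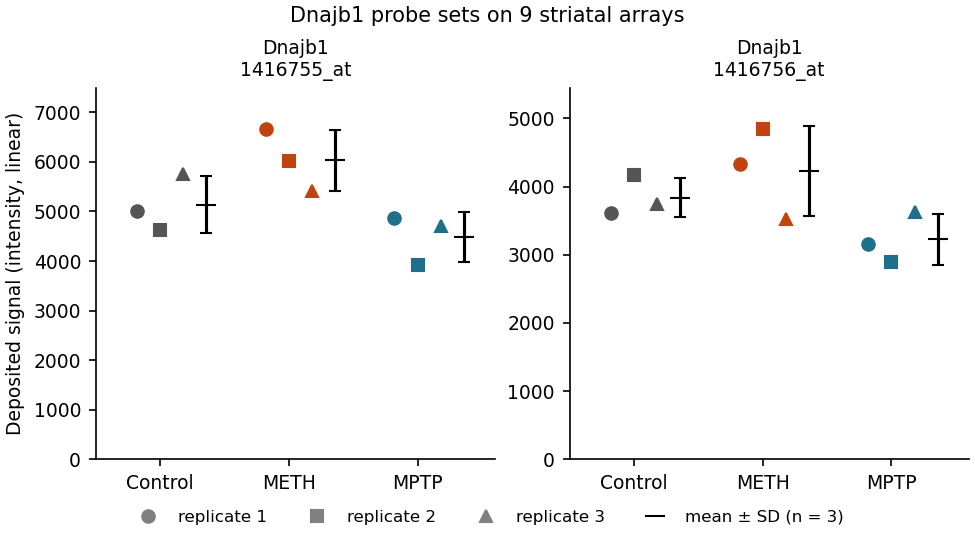
Signals (linear intensity as deposited, axes from 0) of both Dnajb1 probe sets by group, 1 point per array with shape for replicate, and bars for the mean ± SD of 3 arrays. In 1416755_at the lowest METH array, 5422, is above the highest MPTP array, 4859.7; in 1416756_at METH 3 lies inside the MPTP range.

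For 1416755_at the means were 5135 ± 575, 6030.04 ± 616 and 4494 ± 504 (SD, n = 3 each) in Control, METH and MPTP. The log2 fold change was 0.23 ± 0.13 in METH (adjusted p = 0.638), -0.19 ± 0.13 in MPTP (adjusted p = 0.898) and 0.43 ± 0.13 for METH over MPTP, with a 95% interval of 0.14 to 0.71 and adjusted p = 0.9998. When single arrays were left out, the METH value lay between 0.16 and 0.32, the MPTP value between -0.27 (without Control 2) and -0.097 (without MPTP 2), and the METH over MPTP value between 0.33 and 0.50. The other probe set, 1416756_at, read 3614, 4164 and 3741 in Control, 4328, 4838 and 3528 in METH, and 3158, 2897 and 3632 in MPTP. Its METH over MPTP value was 0.38 ± 0.14 (adjusted p = 0.9998), and METH overlapped MPTP through METH 3. Immediate early genes, whose transcripts follow recent neuronal activity and handling, had summed signals of 116292 to 128819 after METH and 99573 to 112522 after MPTP (19 of 22 listed genes tested), and of 114251 to 138594 in the Control group. Choroid plexus and ependyma markers (3 of 8 listed genes tested) varied widely. Their sums on replicates 1, 2 and 3 were 67496, 36890.5 and 14220 in Control, 46876, 53228 and 10514 in METH, and 35933, 5258 and 9401 in MPTP. The 1416755_at signals on the same arrays were 5019, 4626 and 5759, then 6654, 6014 and 5422, then 4859.7, 3918 and 4703. Ttr, the transthyretin gene of choroid plexus, ran from 2853 to 65370.4 over the 9 arrays and was at 1.60 ± 0.96 METH over MPTP on the log2 scale (adjusted p = 0.999). The part of either list in the Dnajb1 signal was not tested.

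Hspa8 encodes the constitutive HSP70, which also strips clathrin from vesicles at nerve terminals. Its brightest probe set, 1420623_x_at, read 41417, 45413 and 51526 in Control, 41509.8, 44979 and 45258 in METH, and 48922, 44981 and 43611 in MPTP. The groups overlapped fully, and the log2 fold change was -0.07 ± 0.11 in METH and -0.0047 ± 0.11 in MPTP, with 95% intervals of -0.30 to 0.17 and -0.24 to 0.23. The other 3 Hspa8 probe sets gave -0.02 to 0.05 in METH and -0.02 to 0.10 in MPTP. In 1455789_x_at, Control 1 read 26287 against 51852 and 51775 on the other Control arrays, METH read 46243, 34146 and 42495, and MPTP read 41805, 42026 and 49200.4. Control 1 was the lowest of the 9 arrays there. It was also lowest in Hspa8 1420623_x_at and 1420622_a_at and in all 4 Hspa1a and Hspa1b probe sets. The same held for Hsph1 1423566_a_at, Hsp90aa1 1437497_a_at and Hspb1 1422943_a_at. In every remaining member probe set another array was lowest, and in Dnaja1 1460179_at Control 1 was the highest.

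Dnaja1, a J-domain protein that works with Hspa8, and Hsph1, the HSP110 that frees HSP70 of its nucleotide, were also close to Control. Dnaja1 by 1460179_at read 22850.2, 20311 and 21599 in Control, 20721, 19532 and 21038 in METH, and 19582, 20697 and 19419 in MPTP. The groups overlapped, with log2 fold changes of -0.08 ± 0.09 in METH and -0.12 ± 0.09 in MPTP. Hsph1 by 1425993_a_at read 21521, 19692 and 22727 in Control, 20616, 20981 and 21098 in METH, and 22386, 19742 and 20349 in MPTP, with log2 fold changes of -0.03 ± 0.09 in both. The second probe sets of these genes gave -0.05 for Dnaja1 and 0.08 for Hsph1 in METH, and -0.03 and 0.04 in MPTP.

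Hsp90aa1 encodes the inducible cytosolic HSP90, and its 3 probe sets were close to Control, with differing signs in METH and all lower in MPTP. In METH they gave log2 fold changes of 0.06 ± 0.12 (1438902_a_at), -0.09 ± 0.08 (1426645_at) and 0.11 ± 0.11 (1437497_a_at), and in MPTP -0.11 ± 0.12, -0.09 ± 0.08 and -0.0075 ± 0.11 in the same order. By 1426645_at the signals were 31855, 33199 and 32739.5 in Control, 29284, 32087 and 30786 in METH, and 30585, 30843 and 30189.9 in MPTP. All 3 MPTP values were below all 3 Control values, with adjusted p = 0.933; of all probe sets, 4.92% were lower without overlap in MPTP and 6.21% higher. By 1438902_a_at they were 34838, 30972 and 34866 in Control, 36282, 38826 and 30158 in METH, and 32794, 28967 and 31302 in MPTP, which overlapped throughout.

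Hspb1, a small heat shock protein that holds unfolding proteins without ATP, is best known in brain from reactive astrocytes. By 1422943_a_at it read 3160.04, 4201 and 5576 in Control, 4835, 4582 and 4614 in METH, and 5099, 3992 and 3588 in MPTP. The widest range was within Control, and the log2 fold change was 0.16 ± 0.19 in METH and -0.01 ± 0.19 in MPTP. The second probe set, 1425964_x_at, read 1148, 1169 and 1549.9 in Control, 1688, 1074 and 1555 in METH, and 1337, 1172 and 998 in MPTP. These groups overlapped too, with log2 fold changes of 0.15 ± 0.19 in METH, -0.14 ± 0.19 in MPTP and 0.28 ± 0.19 for METH over MPTP. Astrocyte markers (8 of 8) had summed signals of 49780 to 53864 in the Control group, 52786.5 to 63603 after METH and 60177 to 66105 after MPTP. Much of the rise was Gfap, with means of 5620 in Control, 12286 in METH and 12324 in MPTP. Of the 8 genes, 7 were higher and 1 lower in METH (median log2 fold change 0.08), and 6 higher and 2 lower in MPTP (median 0.20). The part of astrocyte markers in the Hspb1 signal was not tested.

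Bag3, the nucleotide exchange factor that links HSP70 to selective autophagy, read 1716, 2295 and 2039.6 in Control, 2079, 1139.8 and 1946 in METH, and 1980.2, 2156 and 2036 in MPTP by 1422452_at. METH 2 was the lowest array and the other METH arrays were within the Control range. The log2 fold change was -0.27 ± 0.21 in METH and 0.04 ± 0.21 in MPTP, and without METH 2 the METH value was 0.01.

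**Figure D3:**
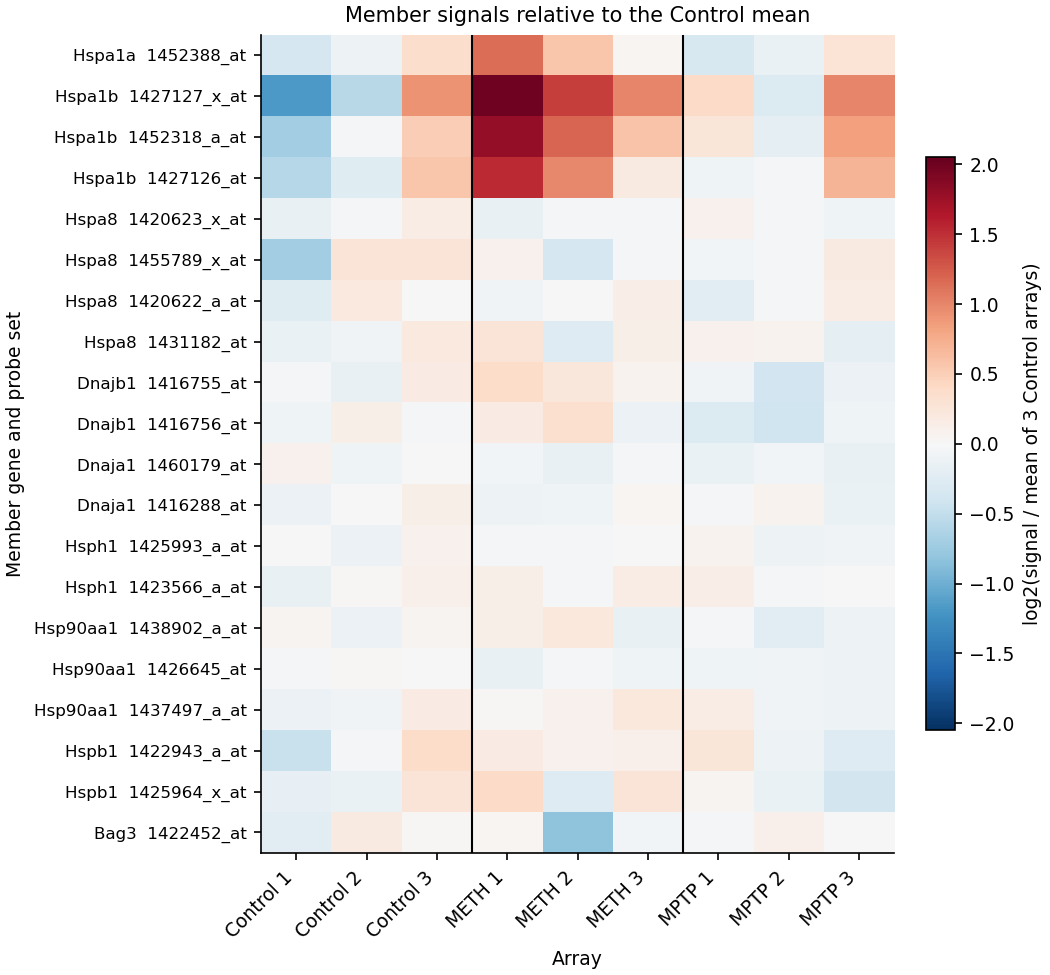
Signal of each of the 20 member probe sets (rows) on each of the 9 arrays (columns), as log2 of the ratio to the mean of the 3 Control arrays, from blue (lower) to red (higher). The 4 Hspa1a and Hspa1b rows hold the deepest colours, with Control 1 blue and METH 1 red, and most other rows are pale.

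Among the 9 member genes tested, 0 passed in any comparison, where an adjusted p under 0.05 over all 7964 genes counted as past the test and 0.0126% of genes passed in METH, 0.0126% in MPTP and 0% in METH against MPTP. In METH, 5 members were higher and 4 lower, where 50.3% of all genes were higher, with a median log2 fold change of 0.06 against 0.00 over all genes. In MPTP, 2 were higher and 7 lower, where 51.8% of all genes were higher, with a median of -0.03 against 0.01. METH over MPTP, 7 were higher and 2 lower, where 47.1% of all genes were higher, with a median of 0.16 against -0.01.

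At an unadjusted p under 0.05 there was 1 member gene in METH (Hspa1b), where 8.25% of all genes were under it. There were 0 in MPTP, against 5.49%, and 2 in METH against MPTP (Dnajb1 and Hspa1a), against 2.85%. Groups without overlap were seen for 1 member higher in METH than Control (Hspa1b), where 6.48% of genes were, and for 2 higher in METH than MPTP (Hspa1b and Dnajb1), where 3.39% were. No member was lower without overlap in METH, where 7.19% of genes were against Control and 3.7% against MPTP. No member gene, read by its brightest probe set, was apart from Control in MPTP, where 6.13% of genes were higher and 5.14% lower without overlap.

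The 19 tested probe sets gave a like picture, with 0 past the test over 13584 probe sets, of which 0.0147% passed in METH, 0.0147% in MPTP and 0% in METH against MPTP. An unadjusted p under 0.05 was found for 2 of 19 in METH (both Hspa1b), 0 in MPTP and 4 in METH against MPTP (2 of Dnajb1, 1 of Hspa1a and 1 of Hspa1b), against 8.77%, 5.52% and 2.8% of all probe sets. Without overlap, 2 of 19 were higher and 0 lower in METH than in Control, where 6.96% and 6.73% of all probe sets were, and 2 were higher and 0 lower in METH than in MPTP, where 3.7% and 3.55% were. In MPTP against Control, 0 of 19 were higher and 1 was lower, Hsp90aa1 1426645_at, where 6.21% and 4.92% of all probe sets were. The 16 probe sets of the 7 other genes had log2 fold changes of -0.27 to 0.23 in METH and -0.25 to 0.10 in MPTP, with SEs of 0.08 to 0.24.

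**Figure D4:**
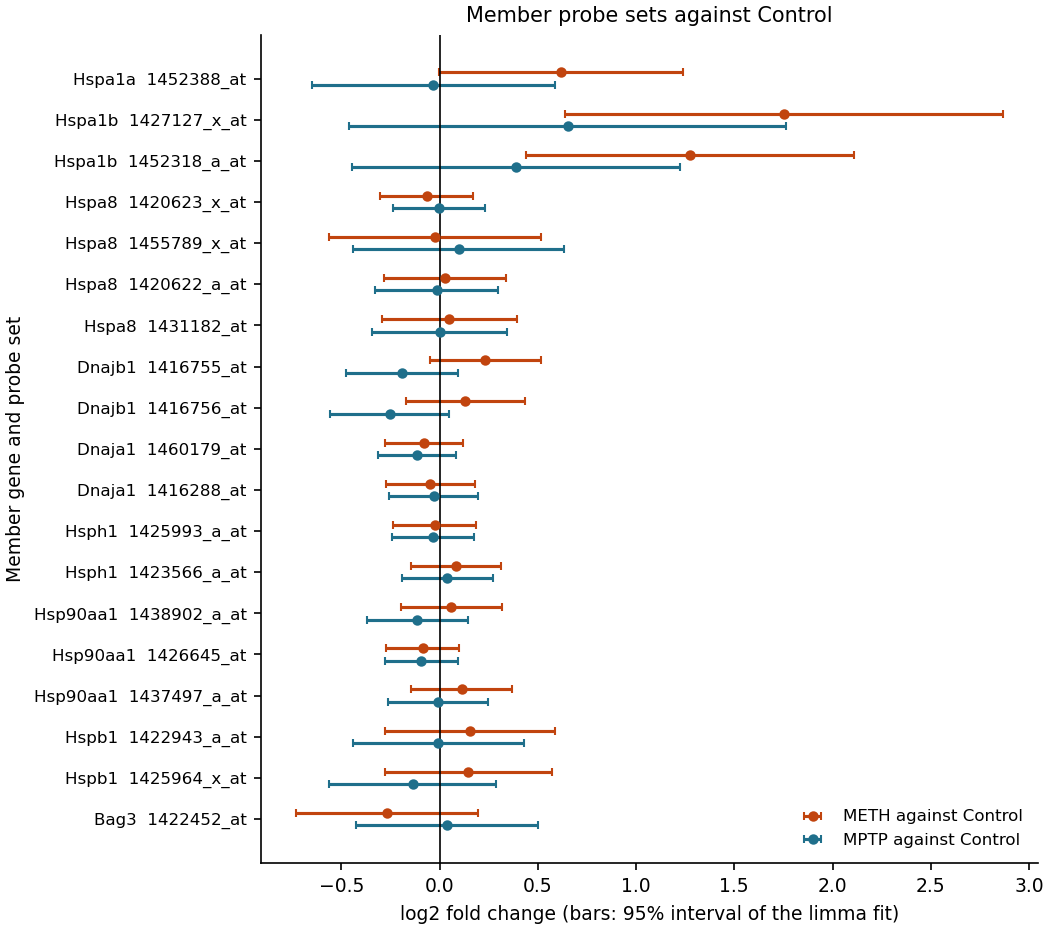
Log2 fold change against Control (horizontal axis) of the 19 member probe sets tested, METH in orange and MPTP in blue, with bars for the 95% interval of the limma fit, not adjusted for the number of probe sets. The intervals of both Hspa1b probe sets in METH start above 0, while those of all other probe sets reach or cross 0.

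The wide spread of the inducible HSP70 signals was within groups too. The pooled within-group SD was 0.42 log2 units for Hspa1a and 0.78, 0.58 and 0.58 for the Hspa1b probe sets, at the 91st, 99th, 97th and 90th percentile of probe sets of like brightness. The steadiest member probe sets were Hsp90aa1 1426645_at, at 0.04, and Dnaja1 1460179_at, at 0.07. Hspb1 1422943_a_at (0.28), Bag3 (0.30) and Hspa8 1455789_x_at (0.36) were wider. For their brightness these were also high, at the 96th, 92nd and 99th percentile, so a wide spread was not particular to inducible HSP70.

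Other chaperones, in lists chosen with earlier results of these data known, had 0 genes past the test in either toxin. Of 13 other cytosolic HSP70, HSP110 and J-domain genes tested, 7 were higher and 6 lower in METH (median 0.02) and 3 higher and 10 lower in MPTP (median -0.06). Hspa4l, an HSP110 relative, had a log2 fold change of 0.28 ± 0.12 in METH. Of 20 co-chaperones, 8 were higher and 12 lower in METH (median -0.01) and 9 higher and 11 lower in MPTP (median -0.02). Bag6, which guards exposed membrane segments of new proteins, was at -0.30 ± 0.10 in METH (adjusted p = 0.543), and Unc45a, a myosin and HSP90 co-chaperone, at -0.27 in METH and -0.32 in MPTP.

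The small heat shock proteins Cryab and Hspb8, the only others of that list tested, were at 0.03 and 0.09 in METH and -0.10 and -0.04 in MPTP. Subunits of TRiC and prefoldin, which fold actin and tubulin, had 4 of 13 higher and 9 lower in each toxin, with medians of -0.08 in METH and -0.07 in MPTP. Endoplasmic reticulum chaperones had 5 of 12 higher and 7 lower in each (medians -0.04 and -0.03), and mitochondrial chaperones had 2 of 7 higher in METH and 3 of 7 in MPTP (medians -0.06 and -0.0018). Hsp90b1, the endoplasmic reticulum HSP90, was at 0.18 ± 0.10 in METH and 0.03 ± 0.10 in MPTP. Of the immediate early genes, 8 of 19 were higher in METH (median -0.04) and 4 of 19 in MPTP (median -0.18). Hsf2 and Hsf4, heat shock transcription factors, were under the filter.

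**Figure D5:**
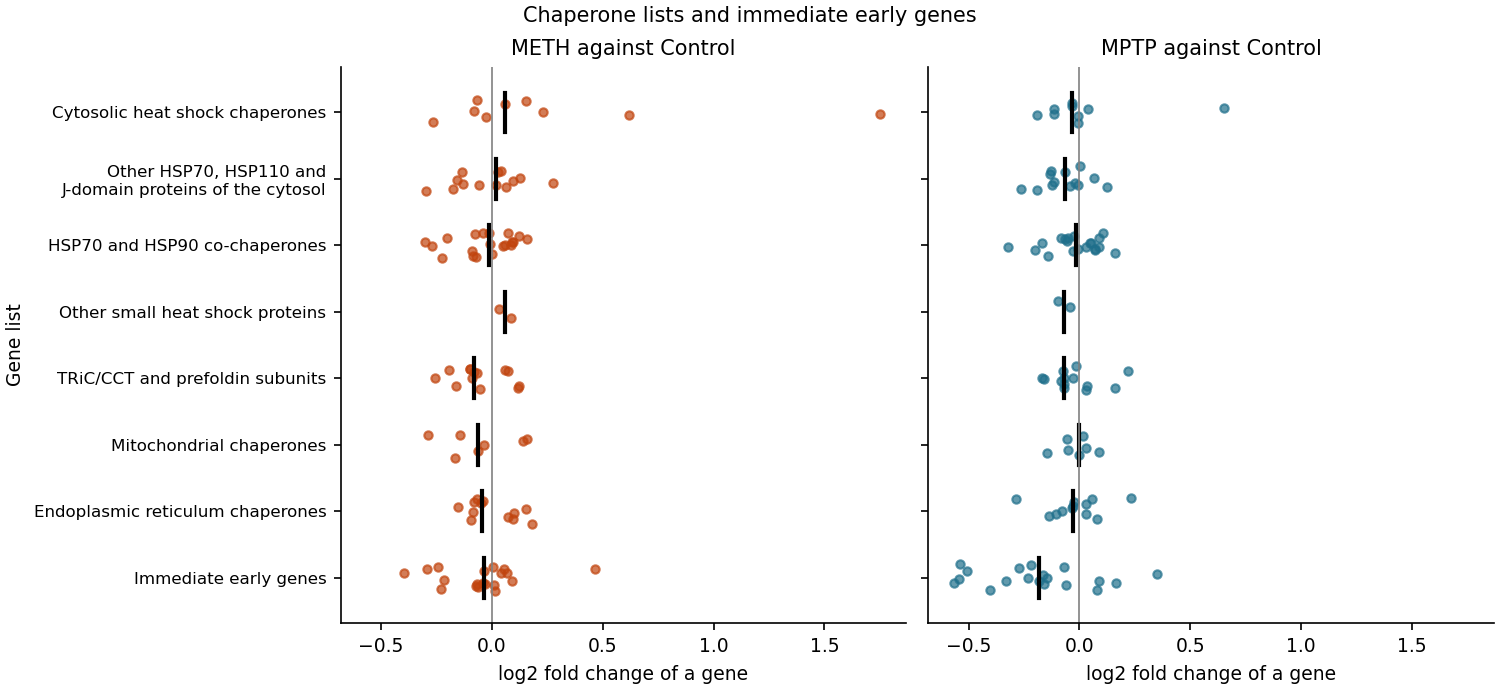
Log2 fold change against Control of each tested gene (points) in the chaperone lists and the immediate early genes, METH at left and MPTP at right, with a black bar for each list's median. Hspa1b, at 1.75, stands apart to the right in METH, and every chaperone list's median lies within 0.1 of 0.

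By Pearson correlation over the 9 arrays, given as a description without a test, the genes whose log2 profile was most like Hspa1b were Creld2 (r = 0.93), Axin1 (0.93), Lamp1 (0.91), Rpia (0.90) and Cpt2 (0.89), out of 7955 genes ranked. The genes most like the mean profile of the members were Mrpl14 (0.93), Armcx1, 4930470P17Rik, Axin1 and Birc6 (0.88 each). For Hspa8 they were Hcn2 (0.91), Vps36, Calr and Rpf2 (0.88 each) and Ap2s1 (0.86). All genes share the same 9 arrays, and high values are found by searching many genes.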

How the data were processed

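Total RNA of 9 striatum samples was hybridised to Affymetrix arrays. The authors deposited 1 linear intensity per probe set and array. The submitters' processing notes list RMA, without version, but the deposited intensity values lack its usual log scale, so the summary method is unsettled. The array design in the series text is larger than that of the annotation used here. How samples were batched is not given in the sources used here.

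Groups came from sample titles. Intensities were put on the log2 scale with no further normalization. Of 22690 probe sets, 20380 had 1 symbol, and 20351 of these matched RefSeq (GRCm38.p6) by gene ID. Those with a mean log2 under the 40th percentile (9.53, a signal of 741) were left out. A gene was its probe set of highest mean. Two-sided tests used limma 3.58.1 in R 4.3.3 (lmFit, 1 mean per group, all 9 arrays, then eBayes, 6 residual and 3.93 prior degrees of freedom), once over 7964 genes and once over 13584 probe sets, with Benjamini-Hochberg adjustment. Values for single probe sets come from the probe set fit. An exact permutation test of 3 against 3 cannot go below p = 0.1 and was not used. The number of arrays limits precision. The scripts were tested on simulated data.

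The members and all gene lists were chosen with earlier results of these data known. Text names every member, up to 3 genes of smallest p per pathway list, and the 5 genes most like each profile. Any other gene past the test is named too. Cell type markers are given mainly by their sums, with single genes where their signals bear on a sum. Ppp1r1b and Drd2 are given as a tissue check. Alternatives were an offset of 100, quantile normalization, median centring, no filter or a 60th percentile filter, all probe sets averaged, array weights, an intensity trend, the compared groups alone, a replicate block and leaving out each array.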

Additional observations from a re-analysis of the deposited data

Results flagged for a closer look

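The Dnajb1 probe set 1416755_at was picked out because all 3 METH arrays and all 3 MPTP arrays lay on opposite sides of the Control mean of 5135. The METH arrays read 6654, 6014 and 5422 and the MPTP arrays 4859.7, 3918 and 4703. METH over MPTP, limma's fit over all probe sets put it at 0.43 ± 0.13 on the log2 scale (adjusted p = 0.9998), so it did not pass. The other Dnajb1 probe set, 1416756_at, did not have this pattern, because METH 3 read 3528, below its Control mean of 3840. The share of all probe sets that meet the rule is not given here.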

How the results depend on the processing

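The count of members past the test was 0 under every alternative run in all 3 comparisons. Hspa1b in METH and Dnajb1 in METH against MPTP kept their sign under every alternative run. For both, the compared groups did not overlap, so leaving out 1 array could not have turned the sign. The number of all genes past the test, 1 in each toxin against Control, was 0 in METH with median centring and 0 with the replicate block. In MPTP it was 0 with median centring, array weights, only the compared groups and the replicate block, and 2 with no filter. Leaving out single arrays gave 0 to 2 in each. Replicate numbers did not pair the samples (same-number correlations of deviations -0.15 to 0.05, different-number -0.10 to 0.11), and the block brought 0 members past the test. When single arrays were left out, the member median ran from -0.018 to 0.16 in METH, from -0.086 to 0.051 in MPTP and from 0.051 to 0.21 in METH against MPTP, so its sign turned in both toxins against Control. With the 60th percentile filter it was -0.026 in METH and 0.038 in METH against MPTP. In METH it was also below 0 with median centring (-0.0052) and array weights (-0.014), and in MPTP it was -0.11 with array weights.

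Some signs turned, all for members that had not passed the test. With quantile normalization, Hspa8 and Hsph1 in METH were 0.016 and 0.021 and Hspa8 in MPTP 0.053. With median centring, Hsp90aa1 in METH was -0.0052, Bag3 in MPTP -0.0023 and Hsph1 in METH against MPTP -0.016. With all probe sets averaged, Hsph1 was 0.029 in METH and 0.0030 in MPTP, and Hspa8 in MPTP 0.019. With array weights, Hspb1 in METH was -0.014 and Hsph1 in METH against MPTP -0.0055. Leaving out single arrays gave, in METH, Hspa8 -0.14 to 0.017, Hsph1 -0.082 to 0.022, Hsp90aa1 -0.019 to 0.16, Hspb1 -0.050 to 0.36 and Bag3 -0.43 to 0.0064. In MPTP it gave Hspa1a -0.20 to 0.16, Hspa8 -0.079 to 0.078, Hsph1 -0.089 to 0.015, Hspb1 -0.21 to 0.20 and Bag3 -0.074 to 0.14, and in METH against MPTP Hsph1 -0.030 to 0.060. The cause of these shifts was not tested.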
